A study of Mus musculus with 20 samples.

Results

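The integrated stress response (ISR) is the programme that cells start when eIF2α, a subunit of the factor that brings the initiator tRNA to the ribosome, is phosphorylated by GCN2 (amino acid lack), PERK (unfolded protein in the ER), PKR (double-stranded RNA) or HRI (haem lack and mitochondrial stress). Bulk protein synthesis then slows, whereas mRNAs with upstream open reading frames, among them those of ATF4, ATF5, CHOP and GADD34, are translated better. The members described here are 9 genes that carry or limit the transcriptional arm of this response: the bZIP factors Atf4, Atf5, Atf3 and Ddit3 (CHOP), the C/EBP factors Cebpb and Cebpg that pair with ATF4 or CHOP on DNA, the pseudokinase Trib3, the chromatin-binding co-regulator Nupr1, and Ppp1r15a (GADD34), which brings protein phosphatase 1 back to eIF2α. They are defined by their names and roles in the pathway, and were picked with earlier results of these data known. All 9 of 9 were found among the 46078 genes of the deposited table and all passed the filter on low counts that left 14759 genes for testing.

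Livers of 20 male mice on a mixed 129 and C57BL/6 background, at least 9 weeks old, were compared in 6 groups. Cse encodes cystathionine γ-lyase (gene symbol Cth), which makes cysteine (Cys) from cystathionine. The control genotype is labelled WT, whereas the study's list of mice calls it heterozygous, and it is written Cse+/- here. The Cse+/- groups were fed a control diet (n = 2), food lacking Cys (no-Cys, n = 4) or food lacking tryptophan (no-Trp, n = 3). There were likewise 4 Cse-/- animals without Cys, 3 without tryptophan and 4 without tryptophan that also received BSO. This compound, buthionine sulfoximine, blocks γ-glutamyl cysteine synthase and with it the synthesis of glutathione (GSH). All mice had 3 days of a calorie-restricted control diet followed by 2 days of their test diet, so that the shared restriction is part of every group. A group of Cse-/- mice on the control diet was not analysed here, so that against the control diet genotype and diet cannot be told apart in Cse-/- livers. The deletion is carried by the whole animal, and each library is the liver of 1 mouse.

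Counts on genes ranged from 11785740 to 57986121 per library, and the deepest libraries were in the no-Trp groups. Cth was at 88.3 CPM (a count scaled to the TMM-corrected size of its library) or more in all Cse+/- livers and at 14.4 CPM or less in all Cse-/- livers, as labelled. Defining hepatocyte markers (Alb, Apoa1, Ttr, Serpina1a and Cps1) were abundant in all libraries, with summed levels of 37969 to 106809 CPM, and those of pancreas (at most 1.55 CPM) and adipocytes (at most 3.69 CPM) were near 0. In bulk liver, fewer cells of a type and less RNA per cell cannot be told apart.

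Promoter sequences are shown for the members whose window held a motif that bears on the response, so that the levels below can be read beside them. RefSeq promoter windows of GRCm38.p6, from 250 bases before to 50 bases after a transcript's start, were found for 9 of 9 members (10 windows, with 2 of Atf5). They were searched on both strands for the core of the C/EBP-ATF response element, CARE (TGATGNAA), to which ATF4 with a C/EBP partner is known to bind, and for the cAMP response element, CRE (TGACGTCA). The CARE core was in the windows of Atf3, Nupr1 and Trib3 and in 3.97% of all 32851 windows. Only Ppp1r15a among the members had the CRE, which 1.79% of all windows hold. The NRF2 element core (TGACNNNGC, 12.4% of windows), which shares its start with the CRE, was in the windows of Cebpb and Ppp1r15a, the AP-1 site (TGANTCA, 7.81%) in that of Ddit3, and the ER stress element ERSE (0.119%) in none. A match is a description of the letters, not a site of binding, and no match says only that these letters are not in this window. In the sequences below, written 5′ to 3′ on the gene's strand, capitals mark the CARE core (read on the opposite strand) or the CRE. For Nupr1 (chr7:126625471-126625720, minus strand), Atf3 (chr1:191183334-191183583, minus strand) and Ppp1r15a (chr7:45526269-45526518, minus strand) the 250 bases before the start are given, and for Trib3 (chr2:152344031-152344054, minus strand), where the core lies 15 to 22 bases into the RefSeq transcript, the core with 8 bases on either side.
Nupr1: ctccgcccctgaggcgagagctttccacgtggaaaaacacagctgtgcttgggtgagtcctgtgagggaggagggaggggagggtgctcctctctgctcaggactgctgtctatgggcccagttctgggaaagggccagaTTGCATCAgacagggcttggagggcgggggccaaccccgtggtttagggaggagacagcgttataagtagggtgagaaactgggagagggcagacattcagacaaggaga
Atf3: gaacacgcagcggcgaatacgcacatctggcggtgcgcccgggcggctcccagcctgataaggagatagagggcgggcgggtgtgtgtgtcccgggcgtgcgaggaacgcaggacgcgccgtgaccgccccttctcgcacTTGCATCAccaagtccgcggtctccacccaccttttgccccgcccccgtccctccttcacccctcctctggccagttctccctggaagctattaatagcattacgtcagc
Ppp1r15a: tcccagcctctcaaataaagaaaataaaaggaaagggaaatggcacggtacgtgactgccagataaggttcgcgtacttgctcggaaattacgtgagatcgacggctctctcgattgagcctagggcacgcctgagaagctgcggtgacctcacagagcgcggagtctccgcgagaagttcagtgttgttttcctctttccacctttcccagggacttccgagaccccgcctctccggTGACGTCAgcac
Trib3: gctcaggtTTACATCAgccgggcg
Starts are those of RefSeq. That of Ppp1r15a matches the GENCODE gene limit given below, whereas those of Nupr1, Atf3 and Trib3 differ from it. The RefSeq starts of Nupr1 and Atf3 lie inside the longer GENCODE genes, and the core of Trib3 lies upstream of the GENCODE gene. In Nupr1 and in Atf3 the core runs from 110 to 103 bases before the start, with the same 8 letters, and in Ppp1r15a the CRE runs from 12 to 5 bases before it.

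**Figure D1:**
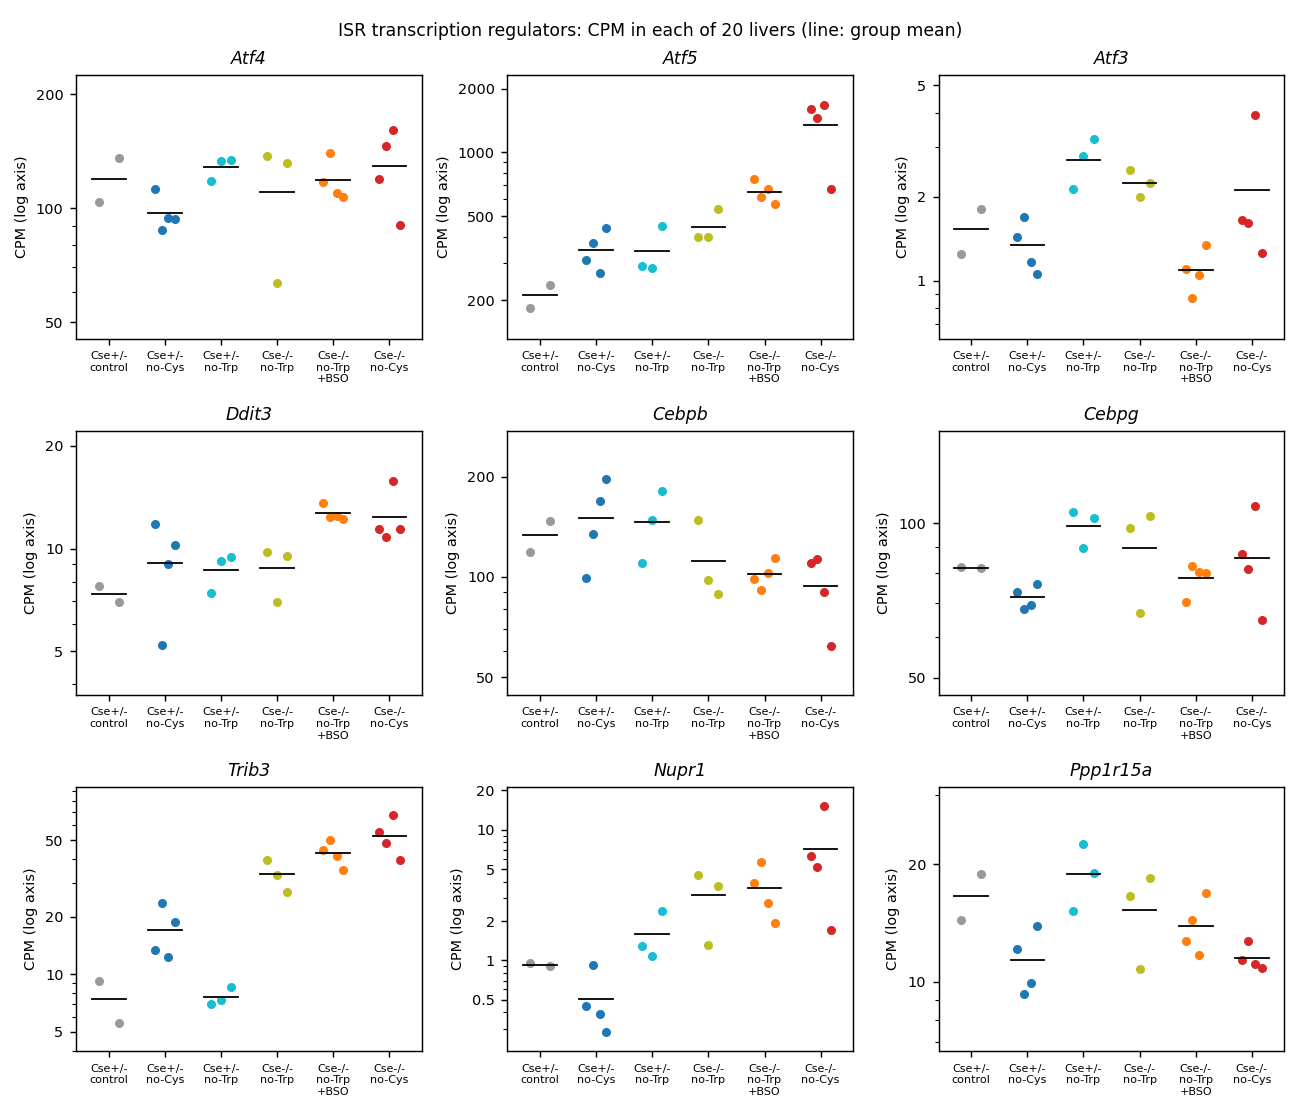
CPM of the 9 genes in each liver, on log axes, by group, with points for single mice and a line for the group mean. Atf5, Trib3 and Nupr1 have their highest group means in Cse-/- livers on the no-Cys diet (1347, 52.8 and 7.08 CPM), whereas the group means of Atf4 lie between 97.1 and 129 CPM.

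Within the control-diet livers, the members differed widely in level. Per kilobase of exon, the mean was highest for Atf5 (106 CPM per kb) and Cebpb (88.6 CPM per kb), followed by Atf4 (50.7 CPM per kb) and Cebpg (14.6 CPM per kb). Ppp1r15a, Ddit3 and Trib3 had 5.66, 4.30 and 3.48 CPM per kb, and Atf3 and Nupr1 only 0.710 and 0.369 CPM per kb. In the Cse-/- no-Cys livers Atf5 stood at 676 CPM per kb, above Cebpb (62.3 CPM per kb) and Atf4 (54.7 CPM per kb), and Trib3, at 24.8 CPM per kb, above Cebpg (15.2 CPM per kb). The levels of Nupr1 (2.82 CPM per kb) and Atf3 (0.978 CPM per kb) remained the lowest of the 9 in that group. How much of a gene's variance over the 20 livers (log2 CPM) lay between the groups also differed, from 94.1% for Trib3, 86.9% for Atf5 and 74.0% for Nupr1 to 24.2% for Atf4.

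The comparison of genotypes on the no-Cys diet asks how the response differs when the mouse can neither make Cys nor eat it. Atf5, Trib3 and Nupr1 were higher in Cse-/- livers, at 3.87, 3.10 and 13.7 times the Cse+/- level, and Cebpb was lower, at 0.626 times. Called higher were thus 3 of 9 members, against 11.6% of all genes tested, and called lower 1 of 9, against 12.2%. Atf5, a factor that controls the mitochondrial unfolded protein response, is transcribed from chr7:44812256-44816658 (GRCm38, minus strand, ENSMUSG00000038539). It stood at 1596, 1455, 1666 and 671 CPM in the Cse-/- livers and at 310, 372, 270 and 438 CPM in the Cse+/- livers. The groups did not overlap, although the lowest Cse-/- liver was well below the other three. The log2 fold change was 1.95 ± 0.23 (SE), with adjusted p = 1.17e-05 (edgeR's quasi-likelihood test with Benjamini-Hochberg adjustment, used for every adjusted p here).

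Trib3 (chr2:152337422-152344032, minus strand, ENSMUSG00000032715), a target of ATF4 and CHOP that binds ATF4 and limits its activity, was at 55.2, 48.4, 67.9 and 39.7 CPM in Cse-/- and at 13.4, 23.5, 12.3 and 18.7 CPM in Cse+/- no-Cys livers. Each Cse-/- liver exceeded each Cse+/- liver, and the log2 fold change was 1.63 ± 0.20 (adjusted p = 1.80e-05). Nupr1 (chr7:126623249-126630861, minus strand, ENSMUSG00000030717), whose product joins transcription complexes under stress, was at 6.25, 5.20, 15.2 and 1.70 CPM against 0.450, 0.916, 0.389 and 0.283 CPM. It had few counts in the Cse+/- no-Cys livers, 4 to 13 per library, and reached 23 to 245 counts in the Cse-/- livers. Its log2 fold change was 3.78 ± 0.63 (adjusted p = 0.000294), with a 95% interval of 2.47 to 5.09, and 3.11 without mouse av07. Atf5, Trib3 and Nupr1 were each called whichever of the 8 libraries was left out, with an adjusted p of at most 0.000101, 0.000116 and 0.00172. These 3 members were also the ones whose groups did not overlap, in a comparison in which the groups of 23.2% of all genes were apart.

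Cebpb (chr2:167688915-167690418, plus strand, ENSMUSG00000056501), a factor of liver metabolism, the acute phase and regeneration, was at 110, 113, 89.8 and 62.0 CPM in Cse-/- and at 99.0, 135, 169 and 196 CPM in Cse+/- no-Cys livers. The groups overlapped, and the log2 fold change was -0.68 ± 0.21 (adjusted p = 0.0271). It was not called without mouse av03, av04, av07 or av08, each left out alone (adjusted p = 0.0698, 0.101, 0.0731 and 0.0785), nor with only the compared groups in the fit (0.0534). Cebpb shares 312 exon bases with Tmem189 on the opposite strand, and whether the counting used strand is not stated in the sources at hand, so that reads from this stretch cannot be told apart. The same limit holds for shorter opposite-strand stretches of Atf5 (82 bases with Il4i1), Ddit3 (68 with Mars and 13 with Gm4189) and Ppp1r15a (12 with Tulp2).

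The other 5 members were not called on the no-Cys diet. Atf4 (chr15:80255184-80257541, plus strand, ENSMUSG00000042406), the central factor of the response, was at 119, 145, 161 and 90.2 CPM in Cse-/- and at 113, 87.8, 94.5 and 93.5 CPM in Cse+/- livers, a log2 fold change of 0.41 ± 0.20 (adjusted p = 0.137). Ddit3 (chr10:127290774-127296288, plus strand, ENSMUSG00000025408), which promotes cell death under lasting stress, ranged from 10.8 to 15.8 CPM against 5.22 to 11.8 CPM, with a log2 fold change of 0.46 ± 0.19 (adjusted p = 0.0823). Atf3 (chr1:191170296-191218039, minus strand, ENSMUSG00000026628), an early repressor of stress and inflammatory genes, differed by 0.66 ± 0.31 (adjusted p = 0.127), and by 0.19 (adjusted p = 0.637) without mouse av07. In all 3 genes the Cse-/- and Cse+/- livers overlapped. Cebpg (chr7:35046422-35056573, minus strand, ENSMUSG00000056216), which lacks a transactivation domain and pairs with ATF4, differed by 0.25 ± 0.13 on the log2 scale (adjusted p = 0.182). Ppp1r15a (chr7:45522916-45526268, minus strand, ENSMUSG00000040435) was at 10.8 to 12.7 CPM and 9.31 to 13.9 CPM, with a 95% interval of the log2 fold change of -0.35 to 0.39. Without mouse av08, Atf4 (0.55, adjusted p = 0.0441) and Cebpg (0.36, adjusted p = 0.0432) were called higher, and without mouse av01 Ddit3 was (0.60, adjusted p = 0.0298). The differences were smaller without mouse av07 for Atf4 (0.30, adjusted p = 0.322) and Cebpg (0.14, adjusted p = 0.500), and without mouse av02 for Ddit3 (0.26, adjusted p = 0.259).

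**Figure D2:**
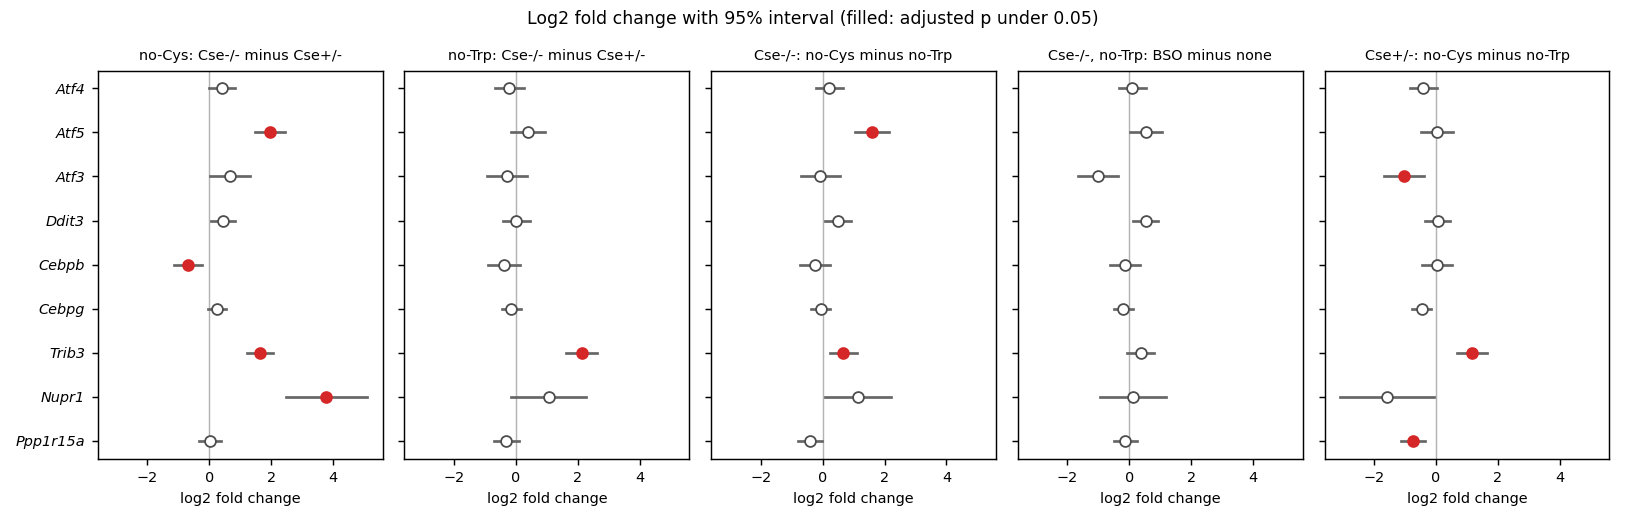
Log2 fold changes of the 9 genes with 95% intervals in 5 comparisons, with the first group named minus the second and filled points for adjusted p under 0.05. Between genotypes, Atf5, Trib3, Nupr1 and Cebpb are called on the no-Cys diet and Trib3 on the no-Trp diet, and no gene is called when BSO is added.

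On the no-Trp diet, where Cys was supplied, 1 of 9 members differed between genotypes, against 1.4% of all genes called higher. That member was Trib3, at 39.7, 33.1 and 27.0 CPM in Cse-/- and 6.96, 7.33 and 8.59 CPM in Cse+/- livers. Every Cse-/- liver was above every Cse+/- liver, and the log2 fold change was 2.12 ± 0.24 (4.35-fold, adjusted p = 9.49e-05). The groups of 19.6% of all genes were apart in this comparison. Atf5 was at 398, 398 and 541 CPM against 290, 284 and 451 CPM, and Nupr1 at 4.53, 1.31 and 3.68 CPM against 1.28, 1.09 and 2.38 CPM. For these 2 genes the groups overlapped and the log2 fold changes were 0.38 ± 0.26 (adjusted p = 0.462) and 1.05 ± 0.59 (adjusted p = 0.351). The median log2 fold change of the 9 members was -0.14 here and 0.46 on the no-Cys diet, whereas the median of all genes was within 0.01 of 0 in both.

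Whether the genotype difference depended on the diet was tested by the interaction, the no-Cys difference minus the no-Trp difference. Only Atf5 was called among the 9 members, with 1.57 ± 0.35 on the log2 scale (adjusted p = 0.0146), against 1.67% of all genes called higher. The interaction of Nupr1 was larger, 2.72 ± 0.88, but less precise (adjusted p = 0.0850). For Trib3 it was -0.49 ± 0.31 (adjusted p = 0.406), with an interval of -1.13 to 0.16. Trib3 was thus raised in Cse-/- livers on both diets, and a difference between these increases was not detected. Without mouse av08 the interaction of Nupr1 was called as well (3.04, adjusted p = 0.0173), as it was without a filter on low counts (0.00965) and with DESeq2 (0.0351), whereas it was 2.06 without mouse av07 and not called. That of Atf5 was called whichever of the 14 libraries was left out, with an adjusted p of at most 0.0434.

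**Figure D3:**
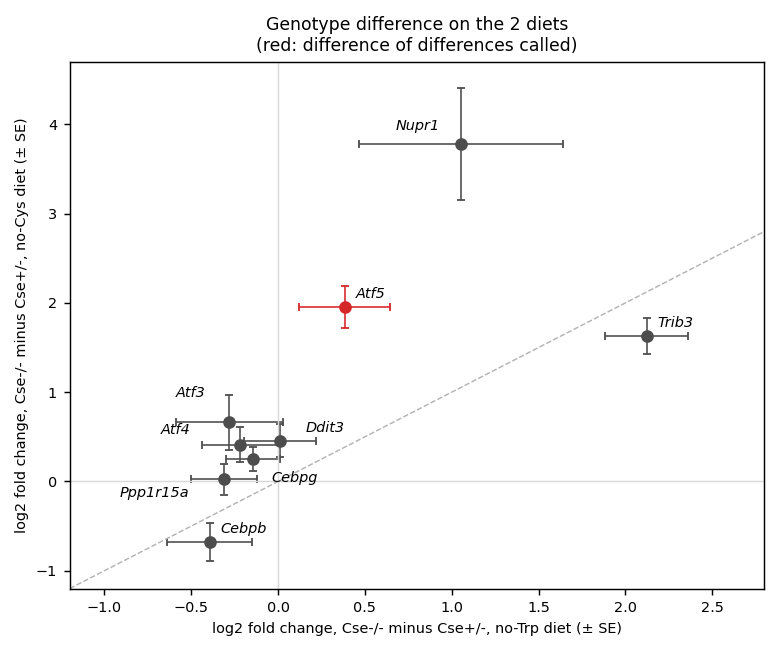
Genotype difference of each gene on the no-Trp diet (horizontal) and the no-Cys diet (vertical), as log2 fold changes with SE bars, and a dashed line of equality. Atf5 (0.38 and 1.95) and Nupr1 (1.05 and 3.78) lie above the line, and Trib3 (2.12 and 1.63) lies below it with an interaction that was not called.

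Within a genotype, the no-Cys diet was compared with the no-Trp diet, so that each difference is that of Cys lack against tryptophan lack. In Cse-/- livers, 2 of 9 members were higher on the no-Cys than on the no-Trp diet, against 5.05% of all genes. Atf5 was 3.02-fold higher (log2 1.60 ± 0.26, adjusted p = 0.000757), and the lowest no-Cys liver (671 CPM) was above the highest no-Trp liver (541 CPM). Trib3 was 1.59-fold higher (0.67 ± 0.21, adjusted p = 0.0488), with ranges that met at 39.7 CPM. The call of Trib3 was lost without mouse av05, av06, av07, av14, av15 or av16, each left out alone, with adjusted p from 0.0615 to 0.187, and with upper-quartile factors (0.0598) or only the compared groups in the fit (0.0778). Ddit3 (0.49 ± 0.20, adjusted p = 0.116) was apart between the diets without a call. The livers of these groups were thus apart in 2 of 9 members, near the 20% of all genes. Without mouse av08, Nupr1 was called (1.46, adjusted p = 0.0399; 1.14 ± 0.52 with all livers, adjusted p = 0.165), whereas without mouse av07 its difference was 0.46 (adjusted p = 0.595). Ppp1r15a, at -0.41 ± 0.18 with all livers (adjusted p = 0.159), was called lower without mouse av15 (-0.61, adjusted p = 0.0366).

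In Cse+/- livers, which still make Cys, the no-Cys diet left 1 member higher than the no-Trp diet, against 4.63% of all genes, and 2 lower, against 3.41%. Trib3 was 2.23-fold higher (log2 1.16 ± 0.23, adjusted p = 0.00563), at 12.3 to 23.5 CPM against 6.96 to 8.59 CPM. Ppp1r15a was at 12.2, 9.31, 9.95 and 13.9 CPM on the no-Cys diet and at 15.2, 22.5 and 18.9 CPM on the no-Trp diet, a log2 fold change of -0.75 ± 0.18 (adjusted p = 0.0176). Atf3 was at 1.44, 1.69, 1.17 and 1.06 CPM against 2.13, 2.78 and 3.22 CPM, or -1.03 ± 0.31 (adjusted p = 0.0481). In each of these 3 genes the livers of the 2 diets were apart, as they were in 19% of all genes. The call of Atf3 was lost whichever of the 7 libraries was left out (adjusted p of 0.0504 to 0.157) and with only the compared groups in the fit (0.0527), and that of Ppp1r15a without mouse av02, av03 or av19 (0.0623, 0.0544 and 0.0969). Nupr1 (-1.58 ± 0.72, adjusted p = 0.182) and Cebpg (-0.46 ± 0.14, adjusted p = 0.0522) were apart without a call, as was Atf4 (-0.41 ± 0.21, adjusted p = 0.239). Cebpg passed the threshold by DESeq2 (0.0301), with all genes kept whatever their counts (0.0245) and with only the compared groups in the fit (0.0280).

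BSO was added to the no-Trp diet to lower GSH without Cys lack. None of the 9 members was called between Cse-/- livers with and without BSO, by edgeR or by DESeq2, against 0.793% of all genes by edgeR, and 3 members had an unadjusted p under 0.05. Those 3 were also the ones whose groups were apart, as were 12.6% of all genes. Atf3 was at 1.10, 0.870, 1.05 and 1.34 CPM with BSO and at 2.50, 1.99 and 2.24 CPM without it (log2 -1.01 ± 0.30, adjusted p = 0.124). Atf5 was at 749, 617, 670 and 567 CPM with BSO, above the 398 to 541 CPM without it (0.55 ± 0.25, adjusted p = 0.343). Ddit3 was at 12.2 to 13.6 CPM against 6.98 to 9.74 CPM (0.53 ± 0.20, adjusted p = 0.216). The intervals of the other 6 members included 0, the narrowest being that of Cebpg (-0.49 to 0.11) and the widest that of Nupr1 (-0.95 to 1.20).

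Set beside the no-Cys diet, Cse-/- livers on the no-Trp diet with BSO had less Atf5, the only member of 9 called, against 1.33% of all genes called higher on the no-Cys diet. The difference was 1.05 ± 0.23 on the log2 scale (2.07-fold, adjusted p = 0.0221), with overlap through mouse av08. The call was lost without mouse av05, av06, av07, av09, av11 or av12, each left out alone (adjusted p from 0.0515 to 0.0820). Without mouse av08, Atf3 was called higher on the no-Cys diet (1.11, adjusted p = 0.0259; 0.93 ± 0.29 and 0.0845 with all livers), whereas without mouse av07 its difference was 0.45 (adjusted p = 0.345). Trib3 (0.31 ± 0.19, adjusted p = 0.395) and Nupr1 (1.02 ± 0.47, adjusted p = 0.231, and 0.33 without mouse av07) were not called. Against Cse+/- livers on the no-Trp diet, the BSO-treated Cse-/- livers had more Trib3 (2.48 ± 0.23, adjusted p = 4.23e-06) and Atf5 (0.93 ± 0.25, adjusted p = 0.0207) and less Atf3 (-1.30 ± 0.30, adjusted p = 0.00847). These were 2 of 9 members higher, against 6.53% of all genes, and 1 lower, against 5.4%. With only the compared groups in the fit, Ddit3 (0.54, adjusted p = 0.0202), Cebpb (-0.52, adjusted p = 0.0454) and Cebpg (-0.33, adjusted p = 0.0474) were called as well. There the call of Atf5 was lost without mouse av09, av17 or av19 (adjusted p = 0.0671, 0.0731 and 0.0908).

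The 2 livers of the control diet allowed only coarse comparisons, which share these livers. Trib3 was at 9.21 and 5.57 CPM in them, and was the only member of 9 called in Cse+/- livers on the no-Cys diet (log2 1.20 ± 0.28, adjusted p = 0.0247, against 0.989% of all genes called higher) and in Cse-/- livers on the no-Trp diet (2.16 ± 0.29, adjusted p = 0.000544, against 0.413%). The first of these was lost without mouse av02 (adjusted p = 0.0686) or control mouse av22 (adjusted p = 0.447), and with only the compared groups in the fit (0.106). In Cse-/- livers on the no-Trp diet, Atf5 was at 1.08 ± 0.30 (adjusted p = 0.0850) and was called without a filter on low counts (0.00542) and with DESeq2 (0.0127). In Cse+/- livers on the no-Trp diet no member was called by edgeR or DESeq2, against 0.0474% of all genes by edgeR, and 2 had an unadjusted p under 0.05. In Cse-/- no-Cys livers, 4 of 9 members were above the control diet, against 8.81% of all genes: Trib3 (2.83 ± 0.29), Nupr1 (2.93 ± 0.73), Atf5 (2.68 ± 0.32) and Ddit3 (0.75 ± 0.23), with adjusted p of 3.61e-06, 0.00890, 2.04e-05 and 0.0324. With the no-Trp diet and BSO, 3 of 9 were, against 3.44%: Trib3 (2.52 ± 0.28), Atf5 (1.63 ± 0.30) and Ddit3 (0.78 ± 0.23), with adjusted p of 2.73e-05, 0.00247 and 0.0457. The calls of Ddit3 did not hold without either control liver (adjusted p of 0.122 without av21 and 0.213 without av22 for the no-Cys diet, and 0.171 and 0.323 with BSO), nor without mouse av07 on the no-Cys diet (0.0842). With BSO, the call of Ddit3 was also lost without mouse av09, av10, av11 or av12 (0.106, 0.0646, 0.0773 and 0.0743), with upper-quartile factors (0.0539) and with libraries thinned to the shallowest (0.0590). The difference of Nupr1 was 2.25 without mouse av07, and its call was lost without control mouse av21 (0.0852) or av22 (0.0892), and that of Atf5 with BSO without av21 (0.0630).

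Ordered by group mean, Atf5 fell from the Cse-/- no-Cys livers (1347 ± 459 CPM, SD) through Cse-/- no-Trp with BSO (651 ± 77.6), Cse-/- no-Trp (446 ± 82.5), Cse+/- no-Cys (348 ± 73.5) and Cse+/- no-Trp (341 ± 95.1) to the control diet (211 ± 37.1). Of the neighbours in this order, only the leading pair differed (adjusted p = 0.0221). Trib3 followed the same order for its first 4 groups (52.8 ± 11.9, 42.8 ± 6.46, 33.3 ± 6.32 and 17.0 ± 5.19 CPM), and then came the Cse+/- no-Trp (7.63 ± 0.852 CPM) and control (7.39 ± 2.58 CPM) livers. Neighbours differed between Cse-/- no-Trp and Cse+/- no-Cys (adjusted p = 0.0149) and between Cse+/- no-Cys and Cse+/- no-Trp (0.00563). Nupr1 began with the same 3 Cse-/- groups (7.08 ± 5.74, 3.57 ± 1.64 and 3.17 ± 1.67 CPM) and ended with Cse+/- no-Trp (1.58 ± 0.698), control (0.928 ± 0.0330) and Cse+/- no-Cys (0.510 ± 0.280) livers, with no difference between neighbours. In the other 6 genes no neighbours differed. Atf3 and Ppp1r15a were highest in the Cse+/- no-Trp livers (2.71 ± 0.548 and 18.9 ± 3.66 CPM), as was Cebpg (99.0 ± 8.44 CPM), and Cebpb was lowest in the Cse-/- no-Cys livers (93.7 ± 23.5 CPM).

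Some livers stood to the same side of their group mean in most members. Among Cse-/- no-Cys livers, mouse av08 was below its group mean in all 9 genes, with deviations of -1.62 on the log2 scale for Nupr1, -0.92 for Atf5 and -0.08 for Ppp1r15a. Mouse av07 was above the mean in 7 of 9, by 1.47 for Nupr1 and 1.00 for Atf3. Of the Cse-/- no-Trp livers, mouse av15 was below the mean in 8 of 9 and mouse av14 above it in 8 of 9. Of the Cse+/- no-Trp livers, mouse av20 was above the mean in all 9 and mouse av17 below it in 8 of 9. Among the Cse-/- no-Cys livers the sum of the hepatocyte markers was highest in mouse av08 (65264 CPM) and was 37969 to 41453 CPM in the other 3 livers of the group. Their part in the members' levels was not tested.

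**Figure D4:**
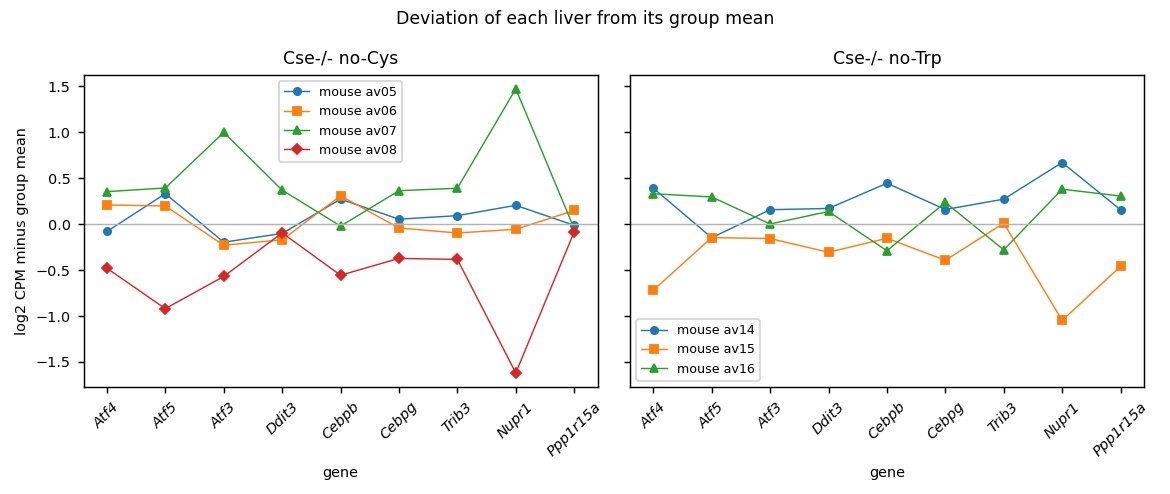
Deviation of each liver from its group mean (log2 CPM) for the 9 genes, in Cse-/- livers on the no-Cys diet (left) and the no-Trp diet (right). Mouse av08 is below 0 in all 9 genes, and mouse av07 reaches 1.47 for Nupr1.

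Correlations over the 20 livers, which share groups and normalization, describe how the members varied together. The highest was between Atf5 and Trib3 (r = 0.83), followed by Atf5 and Nupr1 (0.78), Atf4 and Cebpg (0.74) and Trib3 and Nupr1 (0.69). After subtraction of the group means, Atf4 and Cebpg (0.79), Cebpg and Nupr1 (0.72) and Atf4 and Nupr1 (0.72) were highest, whereas Atf5 and Trib3 fell to 0.43. Ddit3 and Trib3 went from 0.59 to -0.13. Among 12578 genes with a mean of at least 1 CPM, the gene most like Atf5 was Sars, the cytosolic seryl-tRNA synthetase (r = 0.97), followed by Mthfd2 (0.95), a mitochondrial folate enzyme. The gene most like Nupr1 was Fgf21 (0.87), a hormone made by liver under amino acid lack, and for Trib3 it was Ugp2 (0.93), for Ddit3 Vps37c (0.88), for Cebpb Pim3 (0.89), for Atf4 Vps16 (0.88), for Ppp1r15a Pnrc1 (0.85), for Cebpg Mir703 (0.79) and for Atf3 Ybx3 (0.72). The next most like were Gm19619 (0.94) for Atf5, Casp6 and Pced1a (both 0.91) for Trib3, and Dnajc2 and 1700086O06Rik (both 0.87) for Nupr1. For Atf4 they were Tmem199 (0.88) and Rpl28-ps3 (0.80), for Atf3 Klf6 (0.72) and Rora (0.71), for Ddit3 AI837181 and Lmna (both 0.87), for Cebpb Fabp1 (0.85) and Spag7 (0.82), for Cebpg Cacybp (0.77) and Gm6023 (0.76), and for Ppp1r15a Cox6c2 and Nasp (both 0.83). No member was among the 3 genes most like another.

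The genes around the members were read from lists of the pathway. The counts on the no-Cys diet below stand against 11.6% of all genes called higher and 12.2% called lower. Of 15 enzymes and transporters known as ATF4 targets that were tested, 11 rose, against 11.6% of all genes, and none fell between genotypes on the no-Cys diet, with a median log2 fold change of 1.10, against -0.01 for all genes. The changes ran from Psat1, an enzyme of serine synthesis (57.8 against 1.01 CPM, 5.83 ± 0.40, adjusted p = 3.29e-08), to Shmt2, which passes the carbon of serine to folate in mitochondria (0.52 ± 0.09, adjusted p = 0.000575). Of 16 effectors downstream of ATF4 and CHOP, 9 rose and none fell (median 0.82), from Fgf21 (29.1 against 1.24 CPM, 4.50 ± 0.72, adjusted p = 0.000204) to Map1lc3b, an autophagosome protein (0.29 ± 0.09, adjusted p = 0.0227). The counts of both lists without any single library stayed at 10 or 11 and at 7 to 10.

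Upstream of the members, 5 of 8 subunits of eIF2 and of its exchange factor eIF2B were higher (median 0.41) and none lower. The largest change was in Eif2s1, which encodes eIF2α itself (0.68 ± 0.11, adjusted p = 0.000231), and the smallest called in Eif2b4 (0.40 ± 0.09, adjusted p = 0.00393). Among 6 genes of the eIF2α kinases and their regulators, 2 rose and 2 fell, against 11.6% and 12.2% of all genes. The highest was Impact, an inhibitor of GCN2 (0.75 ± 0.14, adjusted p = 0.000806), and the lowest Eif2ak2, which encodes PKR (-0.53 ± 0.13, adjusted p = 0.00649). Of the 4 partners of Ppp1r15a or its paralogue, none was called by edgeR or DESeq2, and none had an unadjusted p under 0.05. Ppp1r15b, the constitutive counterpart of GADD34, differed by -0.083 on the log2 scale, and the phosphatase subunits Ppp1ca, Ppp1cb and Ppp1cc by 0.15, -0.027 and -0.0014.

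Of 17 other ATF, CREB and C/EBP genes, 5 were higher, against 11.6% of all genes, and none lower on the no-Cys diet (median -0.02), from Cebpe (1.37 ± 0.24, adjusted p = 0.000428) to Creb3 (0.38 ± 0.09, adjusted p = 0.00492). Trib1, Trib2 and Nupr1l, relatives of Trib3 and Nupr1, were not called by edgeR or DESeq2, with log2 fold changes of 0.15, -0.16 and 0.89 and 1 unadjusted p under 0.05, and 1 of the 3 was called without mouse av01. Of 12 AP-1 and immediate-early genes, 2 were lower, a share near that of all genes called lower (12.2%), and none higher, namely Fos (-1.86 ± 0.59, adjusted p = 0.0288) and Dusp1 (-1.61 ± 0.38, adjusted p = 0.00449). Only 1 of these was called without mouse av01, av05 or av07, each left out alone, and 3 genes of the list were without mouse av02. ER chaperones and degradation factors, which the unfolded protein response controls, were higher in 8 of 17 (median 0.49), from Hyou1 (0.96 ± 0.24, adjusted p = 0.00625) to Hsp90b1 (0.45 ± 0.16, adjusted p = 0.0424), but in 5 without mouse av02, av06 or av08, each left out alone. NRF2 targets were higher in 6 of 9 (median 0.65), from Nqo1 (2.29 ± 0.25, adjusted p = 4.49e-06) to Txnrd1 (0.46 ± 0.10, adjusted p = 0.00261).

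Between genotypes on the no-Trp diet, 2 of the 15 ATF4 targets were called, against 1.4% of all genes called higher: Asns (2.96 ± 0.58, adjusted p = 0.0107) and Psat1 (2.33 ± 0.38, adjusted p = 0.00345). They were 1 without mouse av19 and 3 without mouse av14. Of the 16 effectors edgeR called only Bbc3, a proapoptotic gene (1.34 ± 0.27, adjusted p = 0.0123), and none without mouse av19 and 2 without mouse av14. DESeq2 called 3 ATF4 targets and 2 effectors. By edgeR, 6 ATF4 targets and 7 effectors had an unadjusted p under 0.05. With BSO added to the no-Trp diet, none of the 15 ATF4 targets was called by edgeR or DESeq2 and none had an unadjusted p under 0.05. Of the 16 effectors edgeR called none and DESeq2 called 2, with 3 at an unadjusted p under 0.05, and edgeR called 1 without mouse av10. Of the NRF2 targets 5 of 9 were higher with BSO, against 0.488% of all genes, from Nqo1 (1.87 ± 0.26, adjusted p = 0.00154) to Txnrd1 (0.57 ± 0.11, adjusted p = 0.0137), and 3 without mouse av09. The interaction of genotype and diet was called, against 1.67% of all genes called higher, for 5 of 15 ATF4 targets, from Aldh1l2 (4.16 ± 0.70, adjusted p = 0.00272) to Slc3a2 (1.24 ± 0.27, adjusted p = 0.0133), and for 4 of 16 effectors, from Cdkn1a (4.51 ± 0.74, adjusted p = 0.00227) to Eif4ebp1 (0.84 ± 0.19, adjusted p = 0.0155). It was not particular to these lists. Also called higher were 5 of 9 NRF2 targets and 4 of 17 ER chaperones and degradation factors. So were 3 of 17 other ATF, CREB and C/EBP genes and 1 of 8 subunits of eIF2 and eIF2B.

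**Figure D5:**
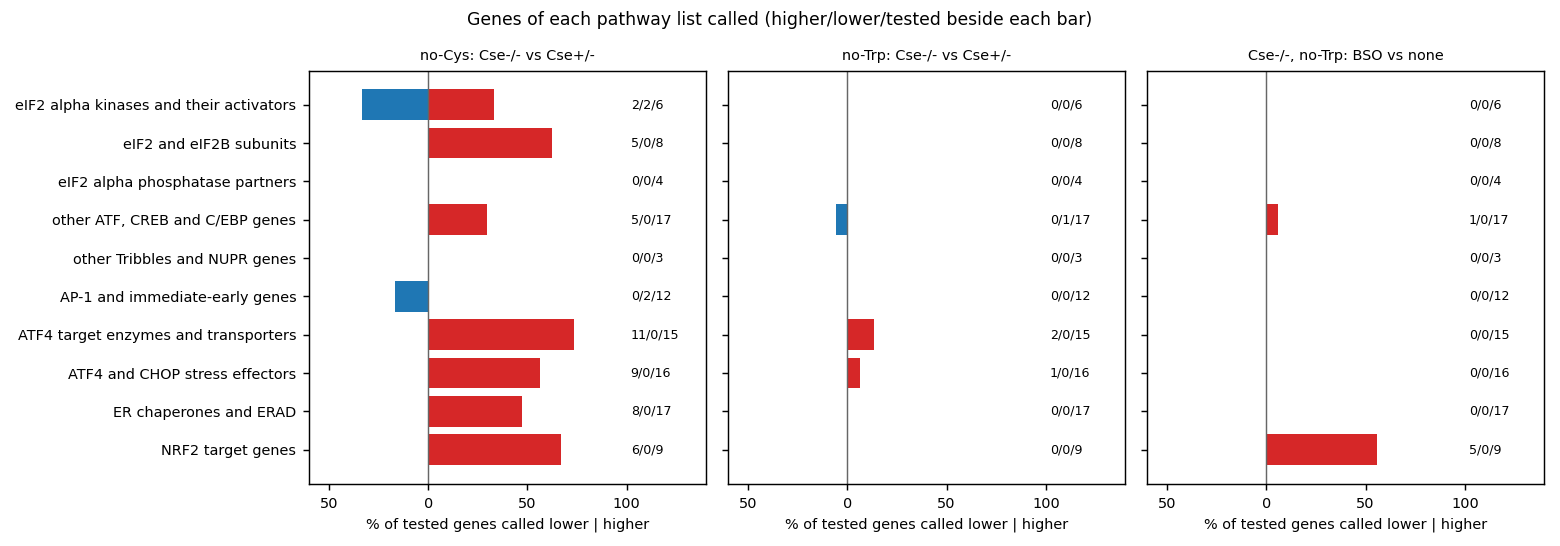
Share of the tested genes of each list that were called higher (red, right) or lower (blue, left) in 3 comparisons, with the counts called higher, called lower and tested beside each bar. On the no-Cys diet 11 of 15 ATF4 targets are called higher in Cse-/- livers, whereas with BSO 5 of 9 NRF2 targets and no ATF4 target are called.

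Markers of hepatocytes, red cells and stellate cells moved with the no-Cys comparison of genotypes. Of the 5 hepatocyte markers Alb, Apoa1, Ttr and Serpina1a were lower and Cps1 was higher in Cse-/- livers, with a summed level of 37969 to 65264 CPM against 82266 to 105921 CPM. The 3 red cell markers (Hba-a1, Hbb-bs and Alas2) were all lower, at 59.3 to 101 CPM in sum against 172 to 363 CPM. The summed stellate cell markers (Lrat, Dcn, Reln, Col1a1 and Col3a1) were apart as well, at 180 to 220 CPM against 226 to 273 CPM, with 2 of 5 called lower. On the no-Trp diet, where Trib3 was called, the sums of the same hepatocyte markers (61415 to 67802 against 72232 to 81967 CPM) and red cell markers (101 to 155 against 176 to 211 CPM) were also lower in each Cse-/- liver than in each Cse+/- liver, with none of these 8 genes called by edgeR and 1 (Serpina1a) at an unadjusted p under 0.05. The summed cholangiocyte markers (Krt19, Krt7, Epcam and Sox9) were lower there too, at 5.54 to 8.88 against 9.02 to 11.1 CPM. Between the no-Cys and no-Trp diets, the hepatocyte sum of Cse-/- livers had medians of 40144 and 64239 CPM, with overlap through mouse av08 alone, and these livers were apart in the sums of sinusoidal endothelium (119 to 130 against 137 to 141 CPM), of lymphocytes and neutrophils (6.19 to 7.91 against 9.01 to 9.41 CPM) and, narrowly, of red cells (59.3 to 100.9 against 101.2 to 155 CPM). Cse+/- livers were narrowly apart between these diets in the hepatocyte sum (82266 to 105921 against 72232 to 81967 CPM). Against the control diet, the hepatocyte sum (105811 to 106809 CPM in the controls) was lower in each Cse-/- liver and in each Cse+/- no-Trp liver. It was at 37969 to 65264 CPM in Cse-/- livers on the no-Cys diet, 61415 to 67802 CPM on the no-Trp diet and 58086 to 73599 CPM with BSO. In Cse+/- livers it was at 72232 to 81967 CPM on the no-Trp diet, whereas those on the no-Cys diet (82266 to 105921 CPM) overlapped the controls. In Cse-/- no-Cys livers the sums of red cells (59.3 to 101 against 162 to 335 CPM) and sinusoidal endothelium (119 to 130 against 151 to 159 CPM) were below the controls as well. In Cse+/- livers, the Kupffer cell and macrophage sum was above the controls (174 to 199 CPM) on the no-Cys (204 to 258 CPM) and no-Trp (219 to 275 CPM) diets. The endothelial sum of Cse+/- no-Trp livers (121 to 150 CPM) was narrowly below the controls. Red cell markers were also lower with BSO than in Cse+/- no-Trp livers (59.5 to 143 against 176 to 211 CPM). The part of these markers in the changes of the members was not tested.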

How the data were processed

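RNA was isolated with trizol from liver homogenates made in PBS, and poly(A) libraries were sequenced with paired reads of 61 bases. Read counts per gene were deposited by the authors, who aligned to GRCm38 with HISAT2 2.1.0 and counted with HTSeq 0.11.0. The annotation release and the strand setting are not given in the sources used here. Symbols and gene coordinates were taken from GENCODE vM21 (45229 of 46078 genes matched). Columns are named by mouse number and were assigned to groups from the study's list of mice for this experiment. They could not be tied to single labelled samples, and 1 column that this list does not hold was not used.

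Counts were normalised by TMM and tested with edgeR 4.0.16 (quasi-likelihood, R 4.3.3) in 1 fit of 20 libraries with a mean per group, after filterByExpr (minimum count 10, minimum total 15). P-values were adjusted by Benjamini-Hochberg over 14759 genes and called under 0.05. The SE was the log2 fold change over the root of F. P-values weigh differences between group means against the spread between mice, estimated over the 6 groups together. On simulated counts for the no-Cys comparison of genotypes (14494 genes, 200 of them changed), 69 of 100 2-fold and 90 of 100 4-fold changes were recovered, with 11 false calls. In the data 23.8% of genes were called in this comparison, so that the share recovered there can differ. DESeq2 1.42.0 and other settings were alternatives. Libraries of a group differed beyond sampling noise in all 25 pairs. Depth limits genes of low count, such as Nupr1 and Atf3. The genes named were all members, the genes that share exon bases with them, the called genes of each list with the largest and smallest log2 fold change, every gene of lists of 5 or fewer, the 3 genes most like each member, Cth and the cell type markers. The members and lists were chosen with earlier results of these data known.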

Additional observations from a re-analysis of the deposited data

Results flagged for a closer look

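In the Cse-/- no-Cys livers, mouse av07 stood apart from the other 3 for Atf3 (3.91 CPM) and Ddit3 (15.8 CPM), beyond Dixon's 95% critical value for 4 samples. Chance alone flags about 1 in 20 groups. Neither gene was called in the comparison of genotypes on the no-Cys diet.

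The genotype difference of Atf5 was larger on the no-Cys than on the no-Trp diet, by 1.57 ± 0.35 on the log2 scale (edgeR's quasi-likelihood test of the interaction, adjusted p = 0.0146). The genotype difference was positive on both diets, but on the no-Trp diet it was not called (0.38 ± 0.26, adjusted p = 0.462 by the same test) and the groups overlapped.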

How the results depend on the processing

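Over 8 other settings, 906 of 936 log2 fold changes of the members kept their side of the threshold, 17 lost a call and 13 gained one. With each library left out in turn, 778 of 828 kept their side, 43 lost a call and 7 gained one. No called value changed sign, but 56 values that were called in neither fit did. Between genotypes, the 4 members called on the no-Cys diet were 3 to 5 without 1 library, and 3 under an adjusted p of 0.01 and with only the groups compared in the fit, where Cebpb was lost, and the 1 on the no-Trp diet stayed 1. For Cse-/- livers on the no-Cys against the no-Trp diet, 2 became 1 with upper-quartile factors, with adjusted p under 0.01 and with only the groups compared in the fit (1 to 3 without 1 library). Against no-Trp with BSO, 1 became 0 under 0.01 (0 to 2). For Cse+/- livers, no-Cys against control went from 1 to 0 under 0.01 and with only the groups compared (0 to 1), and no-Cys against no-Trp from 3 to 1 under 0.01 and to 4 without a filter on low counts and with DESeq2 (1 to 2 without 1 library). Cse-/- no-Trp with BSO against Cse+/- no-Trp went from 3 to 6 with only the groups compared and to 2 under 0.01 (2 to 3). Against the control diet, Cse-/- no-Trp went from 1 to 2 without a filter on low counts and with DESeq2, and with 1 library left out the 4 members of Cse-/- no-Cys ranged from 2 to 4, the 3 of Cse-/- no-Trp with BSO from 1 to 2 and the 1 of Cse-/- no-Trp stayed 1. Cse-/- no-Cys against control was 3 under 0.01 and 5 with only the groups compared, and Cse-/- no-Trp with BSO was 2 under 0.01, with upper-quartile factors and with thinning, and 4 without a filter and with only the groups compared. The interaction went from 1 to 2 without a filter and with DESeq2 and to 0 under 0.01 (1 to 2 without 1 library). The cause of these shifts was not tested. No paired analysis was possible because the columns of the table carry no replicate numbers.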
